A study of Catharanthus roseus with 35 samples.

Results

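The 100 genes described here are those whose transcripts were raised most in Catharanthus roseus plants grown outdoors, in both the youngest and an older leaf. The Madagascar periwinkle, C. roseus, makes the anticancer monoterpenoid indole alkaloids (MIAs), which its leaves store in scattered cells called idioblasts. The genes were taken from 35722 gene models. Counts were expressed as CPM, the count of a gene per 1000000 counts of its sample, and 10832 genes had a mean of at least 10 CPM outdoors in leaf pair 1 and in leaf pair 4. For each, the log2 ratio of outdoors to indoors mean CPM was taken after adding 1 CPM to both, the lower of the ratios of leaf pairs 1 and 4 was the score, and the 100 highest scores made the set. The members were thus chosen by the measured CPM of leaf pairs 1 and 4, and those values are described below without a test.

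All plants were of the cultivar Little Bright Eye, and the labels name no transgene or mutation. Indoors plants stayed in a growth chamber at 25 °C with 16 h of light, at 70 µmol m-2 s-1, and 8 h of darkness. Outdoors plants were mature flowering plants moved from the same conditions to a south-facing place in direct sunlight for some months, and leaves of both groups were collected in the early afternoon of a hot, sunny day. Leaf pairs 1 (the youngest, at the apex) to 4 were sampled without their central veins, with n = 3 per leaf pair and condition. Leaf pairs 1 and 4 were read by Illumina short reads and leaf pairs 2 and 3 by Nanopore long reads. All leaf pairs came from the same 3 plants per condition, so that leaf pairs 2 and 3 are samples the choice did not use but not other plants. Each condition was 1 group of plants in 1 place, and light, temperature and place cannot be told apart. A second experiment, on chamber-grown plants, gave idioblast, common mesophyll and unsorted total protoplasts (n = 3 each) and 2 samples of whole leaves, where protoplasts are leaf cells freed of their walls and sorted by fluorescence (FACS).

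Total counts were 10263533 to 17625811 per Illumina sample and 85976 to 732961 per Nanopore sample. Idioblast markers matched the cells sorted as idioblasts: DAT and D4H, late steps of vindoline synthesis placed in idioblasts, summed to 1111 to 2542 CPM in idioblast protoplasts and 38.5 to 104 CPM in mesophyll protoplasts. No marker of mesophyll cells was examined, so the mesophyll label rests on the sorting. Mesophyll protoplasts held 1714 to 2101 CPM of a list of 10 epidermis genes of the MIA pathway, against 176 to 233 CPM in idioblasts. The mesophyll sum was uneven over the list. LAMT, SLS4 and SLS1 had the highest mean CPM in mesophyll protoplasts, at 1124, 334 and 243. TDC, SGD and T16H2 had means of 11.9, 6.46 and 0 CPM there, against 458, 46.4 and 157 CPM in leaf pair 1 indoors. In leaves the same epidermis list fell from 2812 to 3306 CPM indoors to 2169 to 2344 CPM outdoors in leaf pair 1, and from 746 to 1044 CPM to 265 to 383 CPM in leaf pair 4. DAT and D4H fell likewise, from 1153 to 1193 CPM to 709.9 to 1012 CPM in leaf pair 1 and from 1062 to 1188 CPM to 509 to 633 CPM in leaf pair 4. Within the epidermis list, mean CPM of SGD rose in leaf pair 1 (46.4 to 58.8) and of T16H2 in leaf pair 4 (25.7 to 28.2), while the rest fell. A list of early MIA genes of the internal phloem-associated parenchyma fell from 1221 to 1332 CPM to 958 to 1142 CPM in leaf pair 1. In leaf pair 4 it overlapped, at 507 to 709 CPM indoors and 456 to 675 CPM outdoors. The part of these marker differences in the values below was not tested. In whole leaves, a larger share of cells that express a gene and more RNA per cell cannot be told apart.

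Plants under strong light and heat are known to make small heat shock proteins, which keep other proteins from clumping, flavonoids that absorb ultraviolet light, and enzymes that add sugars to small molecules. Abscisic acid is the hormone of water shortage, and nitrate reductase makes the first committed step of nitrate use, a step known to follow light. Such roles are background for the names below. In the tables of the study that were searched, 18 of the 100 genes have a functional description, and the descriptions are automated. A further 4 are named hypothetical proteins and 78 have none there. The study's tables of genes lower or unchanged in idioblasts were not searched. A gene said below to lack a description may thus have one elsewhere. The tables searched hold mostly genes higher in idioblasts and genes of co-expression modules, so the described members are not a random draw. The set holds 0 of the 73 genes in the study's table of the MIA pathway.

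The members took a small share of the RNA that rose outdoors at every leaf age. In leaf pair 1 they received 0.302% ± 0.060 (SD, n = 3) of counts indoors and 1.20% ± 0.298 outdoors, and in leaf pair 4 0.502% ± 0.051 indoors and 2.32% ± 0.326 outdoors. In the long reads the share was 0.170% ± 0.031 indoors and 0.798% ± 0.285 outdoors in leaf pair 2, and 0.186% ± 0.006 indoors and 0.838% ± 0.298 outdoors in leaf pair 3. The lowest outdoors sample was above the highest indoors sample in each of the 4 leaf pairs, in leaf pairs 1 and 4 by the choice of members.

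**Figure D1:**
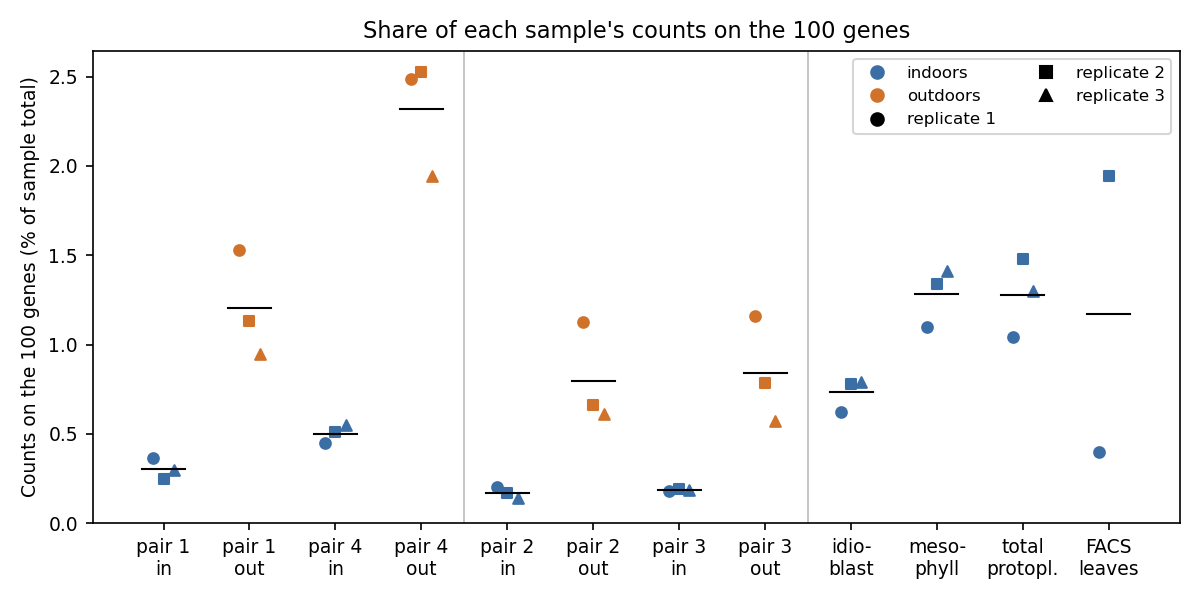
Share of each sample's counts, in percent (y axis), that fell on the 100 genes, by group (x axis). Points are samples with a symbol for the replicate number, black lines are group means, orange is outdoors and blue is chamber-grown. Leaf pair 4 outdoors lies highest, at 1.94% to 2.53%, and the FACS leaf samples lie far apart, at 0.400% and 1.94%.

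Scores ran from 6.13 at rank 1, a 69.9-fold ratio, to 1.42 at rank 100, a 2.67-fold ratio. Of the 100 members, 33 had a score of at least 2 and 14 of at least 3. The median log2 ratio was 1.87 in leaf pair 1 and 2.22 in leaf pair 4, beside -0.04 and 0.05 over the 10832 genes, and 67 members had the larger ratio in leaf pair 4. The ratios differed by 1 or more in 20 members, 17 of them with the larger ratio in leaf pair 4. Every outdoors sample lay above every indoors sample for 92 members in leaf pair 1 and 93 in leaf pair 4, where the share over the 10832 genes was 22.0% and 32.4%.

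At the edge of the set, CATHA_1823 (rank 99) had 11.1, 4.66 and 7.35 CPM indoors and 29.5, 20.8 and 16.7 CPM outdoors in leaf pair 1, with a score of 1.42. CATHA_1468 (rank 100), described as ABC transporter C family member 10, of a family that carries conjugates across membranes, had 83.2, 39.9 and 68.1 CPM indoors and 212, 154 and 150 CPM outdoors. The first genes left out were CATHA_25449, with a score of 1.41, and CATHA_10213, with 1.405. CATHA_10213 went from 12.97, 9.47 and 8.44 to 37.0, 24.1 and 26.2 CPM in leaf pair 1 and is described as tubulin alpha-6 chain. CATHA_25449 had 9.11, 13.1 and 12.4 CPM indoors and 28.5, 28.4 and 39.9 CPM outdoors, so that the first genes left out separated the conditions as the last members did.

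The highest ranks were of 2 kinds. CATHA_23342 (rank 2) was high in every outdoors plant, with 6.12, 6.67 and 7.27 CPM indoors and 263, 266 and 303 CPM outdoors in leaf pair 1, and with 7.27, 3.22 and 4.69 CPM indoors and 259, 154 and 167 CPM outdoors in leaf pair 4. CATHA_29323 (rank 1), in contrast, was high in 1 outdoors sample per leaf pair. It had 0, 207 and 0 CPM outdoors in leaf pair 1 and 0, 230 and 0 CPM in leaf pair 4, replicate 2 being the high one in both. Indoors it had no count in leaf pair 1, which allows up to 0.0733 CPM, and 0.0773, 0 and 0.0823 CPM in leaf pair 4. Neither gene has a description.

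CATHA_29323 was not alone. In 7 members the highest outdoors sample was at least 5 times the next one in both leaf pairs 1 and 4, and carried the same replicate number in both, a pattern chosen after the values were seen. Over the 10832 genes, 9 did so, or 0.0831%. All 7 lie within the first 22 ranks, and 4 within the first 10. CATHA_29323, CATHA_30550 and CATHA_2827 were high in replicate 2, CATHA_8299 and CATHA_31029 in replicate 1, and CATHA_10156 and CATHA_29836 in replicate 3. CATHA_8299 had 78.3, 0 and 0 CPM outdoors in leaf pair 1 and 79.5, 0.0864 and 0 CPM in leaf pair 4, and CATHA_30550 had 0, 32.1 and 0 CPM and then 0, 33.4 and 0 CPM. Neither had a count indoors in leaf pairs 1 or 4, which allows up to 0.0733 and 0.0814 CPM by counting error alone, and no other member lacked indoors counts in both.

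In leaf pairs 2 and 3, which the choice did not use, 5 of these 7 genes were again highest outdoors in the same replicate number. CATHA_29323 had 0, 41.0 and 0 CPM in leaf pair 2 and 0, 36.2 and 1.36 CPM in leaf pair 3, with no count indoors. CATHA_8299 had 28.2, 0 and 0 CPM in leaf pair 2 and 22.1, 0 and 0 CPM in leaf pair 3. The exceptions were CATHA_2827, with 1 count over leaf pairs 2 and 3, and CATHA_29836, with 4 outdoors counts in each leaf pair. In protoplasts of chamber-grown plants CATHA_2827 was also high in 1 replicate number. It had 0, 15.6 and 0 CPM in idioblast, 0, 10.8 and 0 CPM in mesophyll and 0.0836, 3.53 and 0 CPM in total protoplasts. No source used here says that equal numbers are the same plant. Over the genes tested, outdoors samples of equal number deviated together between leaf pairs 2 and 3, with correlations of 0.172 to 0.426. Unequal numbers had -0.336 to 0.086. Whether the plants differ in sequence at these genes was not tested. For these 7 genes the group mean describes 1 outdoors sample rather than the outdoors condition. Of the other 93 members, every outdoors sample lay above every indoors sample in 90 in leaf pair 1 and 92 in leaf pair 4. When group medians took the place of means, an alternative added after the values were seen, 78 of the 100 genes stayed in the set.

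**Figure D2:**
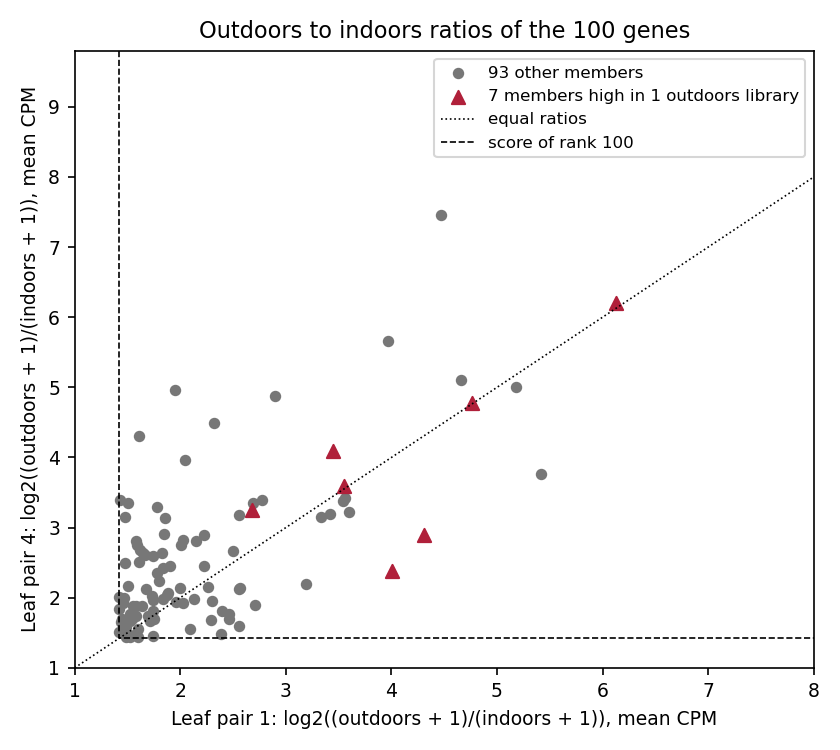
Log2 ratio of outdoors to indoors mean CPM, each plus 1, of the 100 genes in leaf pair 1 (x axis) and leaf pair 4 (y axis). Red triangles are the 7 members high in 1 outdoors sample, grey circles the other 93, the dotted line equal ratios and the dashed lines the score of rank 100, 1.42. Most members lie above the dotted line, and CATHA_37277, the highest point, has ratios of 4.47 and 7.45.

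The outdoors samples also differed in degree. The order below was not counted over the 10832 genes, so it may not be particular to the members. Replicate 3 was the lowest outdoors sample for 64 members in leaf pair 1, 69 in leaf pair 4, 49 of 97 members with counts in leaf pair 2 and 63 of 98 in leaf pair 3. Replicate 1 was the highest for 83, 35, 66 and 69 members, and replicate 2 for 55 in leaf pair 4. The set depends in part on the first of these, since 83 of the 100 genes stayed in it when replicate 1 of leaf pair 1 outdoors was left out.

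The described members with a role in stress were small heat shock proteins, an abscisic acid enzyme and a drought-induced protein. CATHA_1247 (rank 4), a small heat shock protein of the chloroplast, had 0.931, 0.359 and 0.251 CPM indoors and 102.1, 7.87 and 2.06 CPM outdoors in leaf pair 1. In leaf pair 4 it had 1.55, 1.44 and 1.98 CPM indoors and 18.4, 251 and 2.202 CPM outdoors. Its mean thus rests on replicate 1 in the first and replicate 2 in the second, while replicate 3 stayed near the indoors samples. CATHA_5080 (rank 59), another small heat shock protein, had 4.46, 5.67 and 5.68 CPM indoors against 33.6, 16.8 and 10.1 CPM outdoors in leaf pair 1, and 3.56, 2.29 and 1.65 against 6.33, 20.7 and 4.08 CPM in leaf pair 4. The order of the outdoors samples was the same in both genes. CATHA_10059 (rank 58), an abscisic acid 8'-hydroxylase, of the cytochrome P450s that break down abscisic acid, had 2.06, 0.287 and 0.836 CPM indoors and 12.8, 12.3 and 5.84 CPM outdoors in leaf pair 1, and 4.95, 10.3 and 11.9 against 29.8, 35.0 and 30.3 CPM in leaf pair 4. CATHA_22518 (rank 94), described as drought-induced protein 1, had 18.2, 13.3 and 13.6 CPM indoors and 55.5, 37.6 and 34.5 CPM outdoors in leaf pair 1. Both of these separated indoors from outdoors samples completely at both ages.

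Members of nitrogen use and respiration differed in how evenly they moved. CATHA_2546 (rank 34), nitrate reductase, had 91.2, 18.0 and 37.6 CPM indoors and 283, 286 and 25.1 CPM outdoors in leaf pair 1, and 144, 281 and 72.8 CPM against 987, 1076 and 135 CPM in leaf pair 4. Replicate 3 outdoors lay within the indoors range at both ages, so the groups overlapped. CATHA_35380 (rank 71), subunit 7 of the cytochrome b-c1 complex of mitochondrial electron transport, had 3.59, 1.00 and 0.251 CPM indoors and 18.3, 11.8 and 13.1 CPM outdoors in leaf pair 1, and 8.20, 11.6 and 6.83 against 32.8, 28.7 and 24.9 CPM in leaf pair 4, without overlap.

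Among described enzymes of small molecules were glycosyltransferases, dioxygenases, a cytochrome P450 and an oxidoreductase. CATHA_15282 (rank 24), a glycosyltransferase, which would move a sugar onto another molecule, had 19.0, 21.8 and 20.4 CPM indoors and 109, 102.5 and 86.3 CPM outdoors in leaf pair 1, and 19.6, 19.6 and 17.2 against 167, 159 and 114 CPM in leaf pair 4. CATHA_22017 (rank 44), a second glycosyltransferase, went from 14.2, 9.40 and 12.2 CPM to 57.0, 40.9 and 39.2 CPM in leaf pair 1 and from 7.81, 7.47 and 6.09 CPM to 106, 61.1 and 44.3 CPM in leaf pair 4. Neither overlapped between conditions at either age. CATHA_21954 (rank 85), flavonol synthase, which makes flavonols from dihydroflavonols, had 77.7, 65.4 and 78.1 CPM indoors and 244, 194 and 185 CPM outdoors in leaf pair 1. In leaf pair 4 it had 28.5, 25.5 and 18.4 CPM indoors and 197, 306 and 163 CPM outdoors, so that its log2 ratio was 1.48 in the young and 3.15 in the older leaf. CATHA_13192 (rank 12), an oxoglutarate/iron-dependent dioxygenase of the same enzyme class, had 1.20, 0.287 and 0.251 CPM indoors against 31.7, 13.4 and 9.40 CPM outdoors in leaf pair 1. CATHA_9122 (rank 62), described as ferruginol synthase-like, a cytochrome P450, and CATHA_15990 (rank 91), a chloroplast quinone-oxidoreductase homolog, had log2 ratios of 1.67 and 1.74 in leaf pair 1 and 2.12 and 1.45 in leaf pair 4.

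The remaining described members were CATHA_19252 (rank 42), a Ste24 endopeptidase that trims prenylated proteins, CATHA_28326 (rank 56), a DCD domain protein, CATHA_31585 (rank 65), a calponin-homology protein of a class that binds actin, CATHA_27834 (rank 66), a putative phosphatidylethanolamine N-methyltransferase of membrane lipid synthesis, and CATHA_32569 (rank 75), a putative chloroplast methyltransferase. Their log2 ratios were 1.55 to 1.89 in leaf pair 1 and 1.88 to 2.64 in leaf pair 4, and none of them overlapped between conditions at either age. Among members without a description, CATHA_37277 (rank 5), named after its values were seen, had 14.4, 19.4 and 10.4 CPM indoors and 566, 208 and 271 CPM outdoors in leaf pair 1, and 5.41, 3.22 and 3.37 against 732, 1535 and 361 CPM in leaf pair 4. CATHA_7716 (rank 54), chosen likewise, went from 1234, 626 and 903 CPM to 4269, 2661 and 2309 CPM in leaf pair 1 and from 1679, 1615 and 2158 CPM to 8149, 6609 and 6612 CPM in leaf pair 4.

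**Figure D3:**
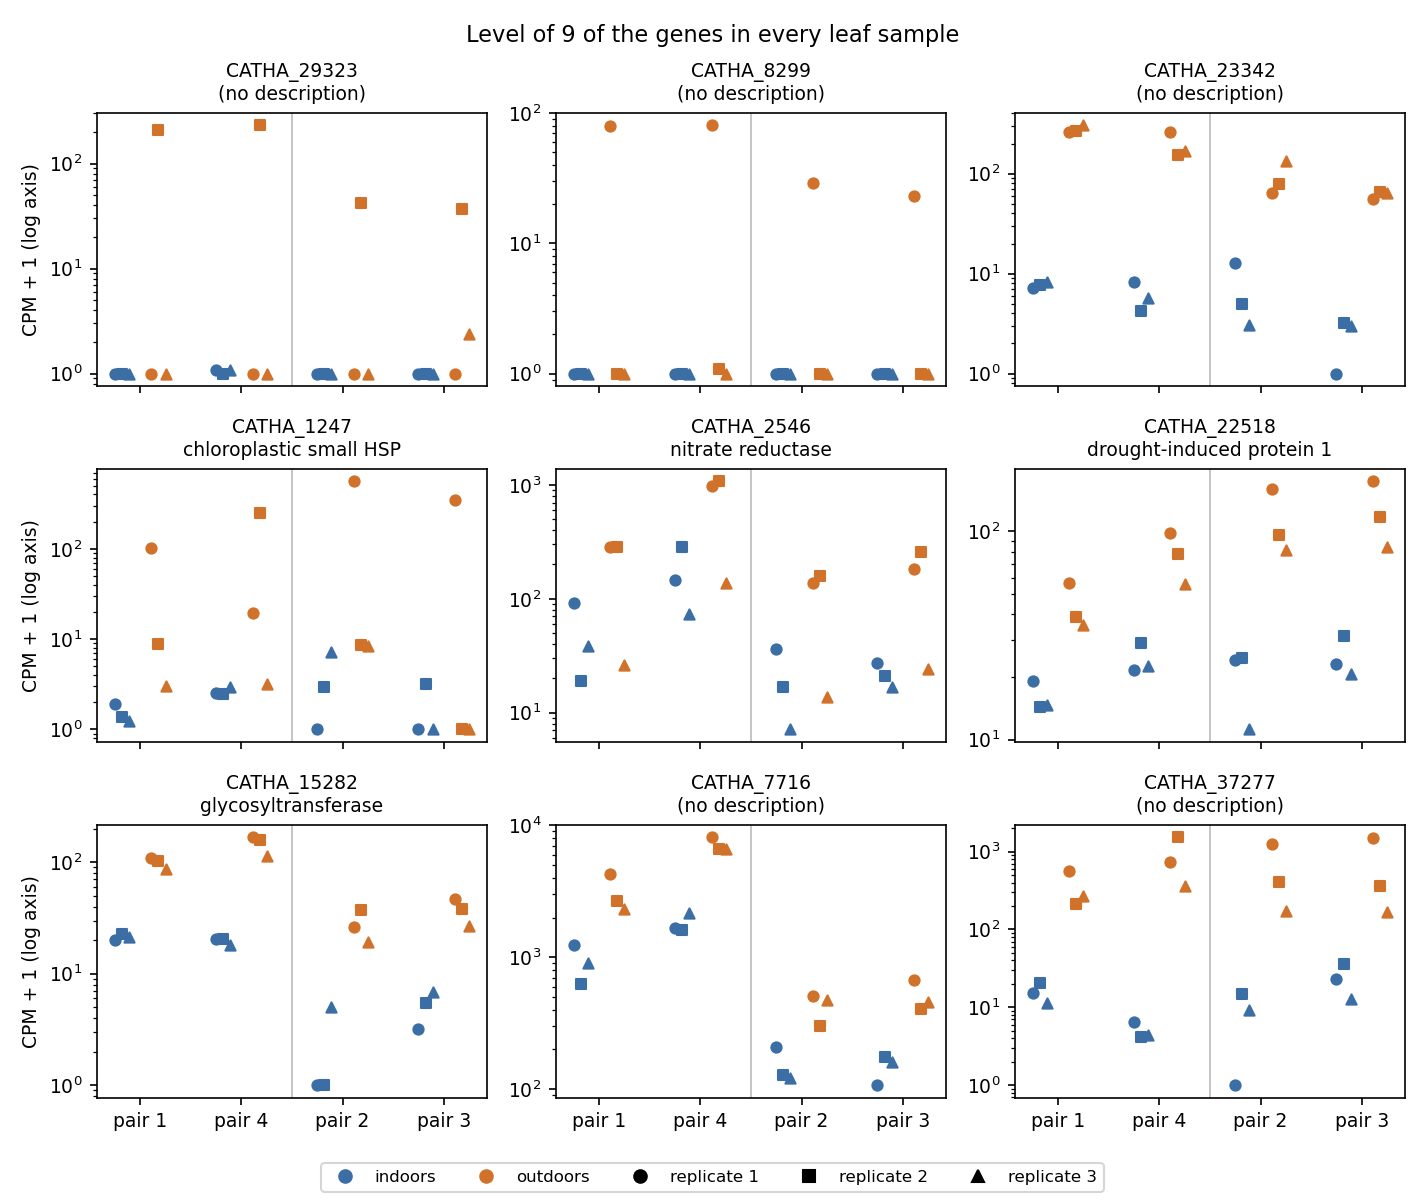
Level of 9 of the genes, as CPM + 1 on a log axis (y axis), in every leaf sample, by leaf pair (x axis; pairs 2 and 3 are Nanopore). Blue is indoors, orange outdoors, and circles, squares and triangles are replicates 1, 2 and 3. CATHA_29323 and CATHA_8299 are high in 1 outdoors sample throughout, while CATHA_23342 and CATHA_22518 are higher in every outdoors sample.

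Leaf age was compared as a description only, since it uses the samples of the choice. The members were mostly higher in the older leaf. The ratio of leaf pair 4 to leaf pair 1 was above 0 on the log2 scale in 71 members indoors and in 88 outdoors, with medians of 0.67 and 0.90 beside -0.15 and -0.05 over the 10832 genes. Nitrate reductase was of this kind, and flavonol synthase had a lower level in leaf pair 4 than in leaf pair 1 indoors.

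The comparison of outdoors with indoors in leaf pairs 2 and 3 asked whether the members also differed at the ages between. They did, in the same direction. By CPM, the log2 ratio of means was above 0 in 96 members in leaf pair 2 and in 96 in leaf pair 3, and in both in 95, with medians of 2.03 and 1.95 beside -0.11 and -0.19 over the 10832 genes. Every outdoors sample lay above every indoors sample in 61 members in leaf pair 2 and 64 in leaf pair 3, beside 7.84% and 6.59% of the 10832 genes, and in both in 52 members, beside 3.00%. The clearest exception was CATHA_29836, one of the genes high in a single outdoors sample, with ratios of -0.43 and -1.01. CATHA_24411 and CATHA_7167 had no Nanopore count in any sample.

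With edgeR's quasi-likelihood test, fitted over the 12 Nanopore samples and adjusted by Benjamini-Hochberg over 5641 genes, 60 members had enough counts to be tested. Calls needed an adjusted p no higher than 0.05 together with a change of 2-fold or more, up or down. In leaf pair 2, 46 members rose outdoors and 0 fell, where 6.01% and 4.18% of all genes tested rose and fell. In leaf pair 3, 52 rose and 0 fell, beside 6.51% and 6.67%. Of the 60, 0 were lower at an unadjusted p under 0.05 in either leaf pair, and DESeq2 also called 0 lower, with 41 and 50 higher. The median log2 fold change was 2.60 in leaf pair 2 and 2.62 in leaf pair 3 beside 0.00 and -0.04 over all genes tested, and with members lacking indoors counts set to their lower bound it was 2.53 and 2.62. A member low indoors could pass the count filter only through its outdoors level, so the 60 are not a neutral sample of the set. Without the filter, 55 and 64 of 98 members rose and 0 fell.

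Each of the 46 members called in leaf pair 2 was also called in leaf pair 3, in samples of the same plants, 6 were called in leaf pair 3 alone and 8 in neither. Of all 5641 genes tested, 3.72% were called higher in both. The difference of the outdoors effect between leaf pairs 3 and 2 was tested as an interaction in edgeR, and 0 of the 60 members were called, as were 0 by DESeq2. At an unadjusted p under 0.05 there was 1 member, CATHA_38177, and 238 of the 5641 genes. The median difference was -0.03 on the log2 scale, and a call missed at this depth does not show that the effects were equal. This fit did not pair the leaf pairs of a plant. With the replicate number as a block, 0 members were called higher and 0 lower.

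**Figure D4:**
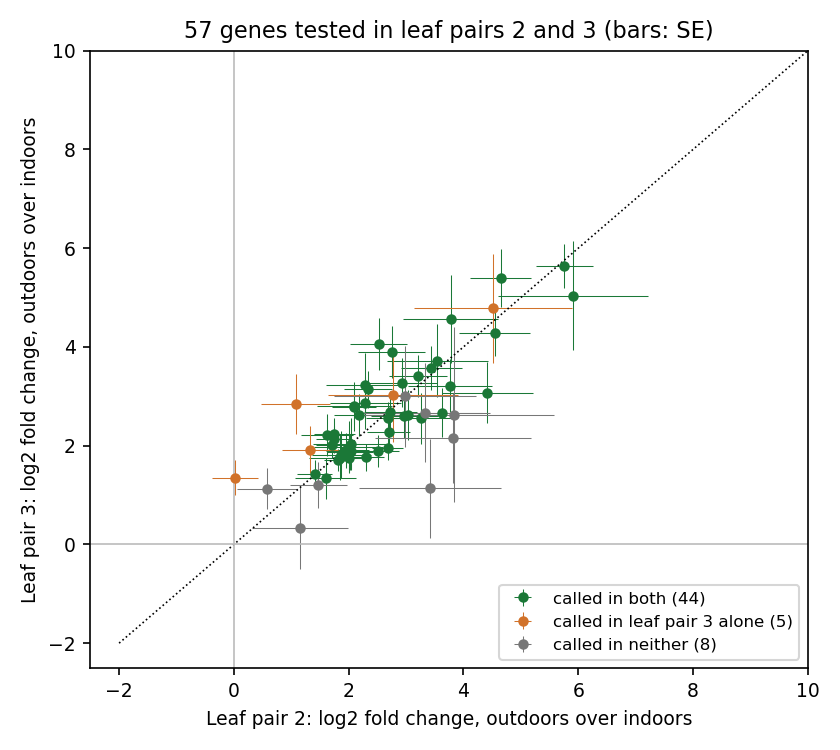
EdgeR log2 fold change, outdoors over indoors, in leaf pair 2 (x axis) and leaf pair 3 (y axis) of 57 members, with bars of 1 SE. The 3 tested members without an indoors count in a leaf pair are left out, and the dotted line marks equal effects. Green points were called in both (44), orange in leaf pair 3 alone (5) and grey in neither (8), and all 57 lie above 0 in both.

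Of the 18 described members, 11 were tested in leaf pairs 2 and 3. Glycosyltransferase CATHA_15282 had 0, 0 and 4.08 CPM indoors and 25.2, 36.2 and 18.2 CPM outdoors in leaf pair 2, and 2.21, 4.42 and 5.89 against 46.0, 37.4 and 25.9 CPM in leaf pair 3. Its log2 fold change was 3.76 ± 0.731 (SE, edgeR adjusted p = 0.00085) in leaf pair 2, the largest among described members called there, and 3.22 ± 0.532 in leaf pair 3. The first value rests on few indoors counts: it was 3.00 without indoors replicate 2, and without indoors replicate 3 the indoors group held no count and the fitted value was 6.60, which is no measured fold. Glycosyltransferase CATHA_22017 had the largest called in leaf pair 3, 3.72 ± 0.738 (edgeR adjusted p = 0.00070), with 6.62, 0 and 0 CPM indoors and 40.5, 24.2 and 17.7 CPM outdoors. Its indoors counts came from replicate 1 alone, and the fitted value without it was 6.80. Drought-induced protein CATHA_22518 had 23.3, 23.7 and 10.2 CPM indoors against 159, 95.3 and 80.1 CPM outdoors in leaf pair 2, and rose by 2.69 ± 0.389 there and by 2.55 ± 0.335 in leaf pair 3 (edgeR adjusted p = 2.5e-05 and 4.4e-06). CATHA_35380 of the cytochrome b-c1 complex rose by 2.97 and 2.61, the Ste24 endopeptidase CATHA_19252 by 3.62 and 2.67, the DCD domain protein CATHA_28326 by 3.03 and 2.62, and the quinone-oxidoreductase homolog CATHA_15990 by 2.04 and 2.03. CATHA_15990 was not called in leaf pair 2 when any sample but outdoors replicate 3 was left out (edgeR adjusted p of 0.052 to 0.21) nor in leaf pair 3 without indoors replicate 1 (0.064), and CATHA_22017 was not called in leaf pair 2 without indoors replicate 2 (0.074). Flavonol synthase was called in leaf pair 3, at 1.92 ± 0.477 (edgeR adjusted p = 0.010), and had 1.32 ± 0.484 in leaf pair 2 (adjusted p = 0.085), a difference between the leaf pairs that was not called.

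Of the described members tested, 3 were called in neither leaf pair. Nitrate reductase had 34.9, 15.8 and 6.12 CPM indoors and 138, 156 and 12.8 CPM outdoors in leaf pair 2, and 26.5, 19.9 and 15.7 against 182, 256 and 23.2 CPM in leaf pair 3. Replicate 3 outdoors was low again, and the log2 fold changes of 2.98 ± 1.24 and 3.00 ± 1.02 had edgeR adjusted p of 0.17 and 0.084. Small heat shock protein CATHA_5080 had 428, 15.2 and 14.6 CPM outdoors in leaf pair 2 against 11.6, 5.92 and 12.2 CPM indoors, with 3.84 ± 1.74 (edgeR adjusted p = 0.21). The lipid enzyme CATHA_27834 had 3.42 ± 1.24 in leaf pair 2 (edgeR adjusted p = 0.077) and 1.14 ± 0.998 in leaf pair 3 (adjusted p = 0.49). The chloroplast small heat shock protein CATHA_1247 had too few counts in most samples to be tested, with 559, 7.62 and 7.29 CPM outdoors in leaf pair 2 and 345, 0 and 0 CPM in leaf pair 3, and at most 6.12 CPM indoors. In both heat shock genes replicate 1 was the high sample in leaf pairs 2 and 3.

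Undescribed members gave the largest tested effects. CATHA_34455 (rank 7), named after its values were seen, had 0, 5.92 and 18.4 CPM indoors and 618, 476 and 621 CPM outdoors in leaf pair 2, and 4.42, 8.83 and 33.4 against 635, 745 and 719 CPM in leaf pair 3. It rose by 5.76 ± 0.492 and 5.64 ± 0.437 (edgeR adjusted p = 2.7e-07 and 6.8e-08), and in leaf pairs 1 and 4 its outdoors samples were also close, at 94.0 to 133 and 274 to 428 CPM. CATHA_37277 rose by 5.91 ± 1.31 and 5.04 ± 1.10 (edgeR adjusted p = 0.023 and 0.016), with 404 CPM in outdoors replicate 2 of leaf pair 2 and 1266 CPM in replicate 1. CATHA_23342 rose by 4.65 ± 0.531 and 5.40 ± 0.585 (edgeR adjusted p = 8.6e-07 and 3.4e-07). CATHA_22045 (rank 13) had no indoors count in either leaf pair and 35.3, 24.8 and 9.11 CPM outdoors in leaf pair 2, at least 8.33-fold higher than a floor of 3 counts over the indoors group, and at least 11.8-fold higher in leaf pair 3.

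The other genes of these kinds were few in the test, and their counts stand beside the 6.01% and 4.18% of all genes that rose and fell in leaf pair 2 and the 6.51% and 6.67% in leaf pair 3. In leaf pair 2, of 7 other heat shock and chaperone genes tested, 1 rose and 1 fell, and in leaf pair 3, 2 rose and 2 fell, with medians of 0.82 and -0.01. Of 6 other dehydration and abscisic acid genes 1 rose and 0 fell in each leaf pair, as did 1 of 3 other phenylpropanoid and flavonoid genes, which had medians of 1.06 and 0.70. None of 3 other redox and detoxification genes was called, although their medians were 1.09 and 1.10. Of 11 other transporter genes 1 rose and 1 fell in each. Lists with no member in the set gave 0 called of 10 defence genes in leaf pair 2 and 3 lower in leaf pair 3, 1 higher and 1 lower and then 0 higher and 1 lower of 5 carbohydrate genes, 0 of 5 kinase and receptor genes in both, and 0 higher and 1 lower of 12 transcription factor genes in both. Of 37 MIA pathway genes, 0 rose and 11 fell in leaf pair 2 and 1 rose and 17 fell in leaf pair 3, with medians of -0.67 and -0.96. The lists hold the described genes only, which limits them to few tested genes.

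The levels of the members in protoplasts of chamber-grown plants are a description. The counts in this paragraph were not taken over the 10832 genes, so they do not set the members apart from other genes. Of the 100, 58 had a mean of at least 10 CPM in idioblast, mesophyll or total protoplasts, 40 had it in each, and 17 were under 1 CPM in each. As a description across library kits (Smart-seq2 for protoplasts, TruSeq for leaves), the mean in total protoplasts was above both outdoors leaf means in 13 members and below both indoors leaf means in 42. Glycosyltransferase CATHA_22017 was of the first kind, with 2120, 3383 and 2993 CPM in total protoplasts, and CATHA_15282 had 966, 1582 and 1235 CPM. CATHA_10122 (rank 47), without a description and named after its values were seen, had 933, 1286 and 1169 CPM in total protoplasts, where leaf pairs 1 and 4 outdoors had 13.3 to 42.0 CPM.

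Between the sorted cells, the members were more often lower in idioblasts. With edgeR's quasi-likelihood test over 21 Illumina samples and 18339 genes, 98 members were tested in idioblast against mesophyll protoplasts, and 5 were higher and 29 lower, beside 7.21% and 9.12% of all genes tested. The median log2 fold change was -0.56 beside -0.02 over all genes. Against total protoplasts, which share the idioblast samples, 8 members were higher and 26 lower, beside 7.98% and 8.06%. The 21 samples include the leaf samples of the choice, so a member low in protoplasts could pass the count filter through its outdoors level. The 98 are thus not a neutral sample of the set. In idioblast against mesophyll, the fit without the filter gave 5 higher and 30 lower of 100 members. A fit of only the samples compared gave 7 higher and 23 lower. The summed CPM of the epidermis list was lower in idioblasts too, as given above, with 8 of its 10 genes lower and T16H2 and 16OMT higher in mean CPM. DAT and D4H were higher in idioblasts, and the part of these marker differences in the counts was not tested.

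The 29 lower members had fitted log2 fold changes of -6.20 to -1.15 with a median of -1.80. None has a description in the tables searched, which did not include the study's table of genes lower in idioblasts. The lack of descriptions is thus no trait of these genes. The end at -6.20 is no measured fold, since CATHA_31146 had no idioblast count and 17 counts over the mesophyll samples. Against a floor of 3 counts over the idioblast group, CATHA_31146 was at least 7.70-fold lower. CATHA_23342 had 5.50, 3.01 and 13.2 CPM in idioblasts and 16.2, 22.3 and 22.9 CPM in mesophyll protoplasts, a log2 fold change of -1.56 ± 0.388 (edgeR adjusted p = 0.0051). CATHA_26822 (rank 96), named after its values were seen, had 31.1, 19.9 and 26.4 CPM in idioblasts and 518, 402 and 267 CPM in mesophyll protoplasts, with -3.95 ± 0.427 (edgeR adjusted p = 1.2e-06). CATHA_10122 had 82.4, 94.9 and 134 CPM against 1056, 1254 and 1377 CPM, with -3.59 ± 0.300 (edgeR adjusted p = 4.1e-08). CATHA_7716 had 58.2, 101.4 and 104.4 CPM against 229, 359 and 451 CPM, with -2.01 ± 0.359 (edgeR adjusted p = 0.00032). In CATHA_23342, CATHA_26822, CATHA_10122 and CATHA_7716 no idioblast sample reached a mesophyll sample.

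The 5 higher members were CATHA_3166, CATHA_29255, CATHA_29595, CATHA_38362 and CATHA_35380, the last alone with a description. CATHA_35380 of the cytochrome b-c1 complex had 92.0, 99.99 and 68.8 CPM in idioblasts, 50.5, 35.1 and 31.0 CPM in mesophyll protoplasts and 44.6, 49.3 and 25.7 CPM in total protoplasts. Its log2 fold change was 1.15 ± 0.373 against mesophyll (edgeR adjusted p = 0.027) and 1.09 ± 0.371 against total protoplasts (adjusted p = 0.033), and neither call held in every alternative. Against mesophyll it was lost when idioblast replicates 1 and 2 and mesophyll replicates 2 and 3 were left out one at a time (adjusted p of 0.052 to 0.092), and against total protoplasts when idioblast replicates 1 and 2 and total protoplast replicates 1 and 3 were (0.060 to 0.14). CATHA_3166 (rank 15) had 7.09, 12.7 and 6.35 CPM in idioblasts and 1.97, 1.74 and 1.29 CPM in mesophyll protoplasts, with 2.37 ± 0.589 (edgeR adjusted p = 0.0050). The count of higher members was 3 when any of idioblast replicates 1 and 2 or the mesophyll replicates was left out. Against total protoplasts, abscisic acid 8'-hydroxylase CATHA_10059 was the described member with the largest increase, at 3.69, 8.58 and 6.52 CPM in idioblasts and 0.585, 2.58 and 2.73 CPM in total protoplasts (1.61 ± 0.562, edgeR adjusted p = 0.037). It was not called when idioblast replicate 2 or 3 or total protoplast replicate 1 was left out, with adjusted p of 0.080 to 0.15, nor in a fit of only the samples compared (0.059), and the count of 8 higher members was 4 without idioblast replicate 2.

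**Figure D5:**
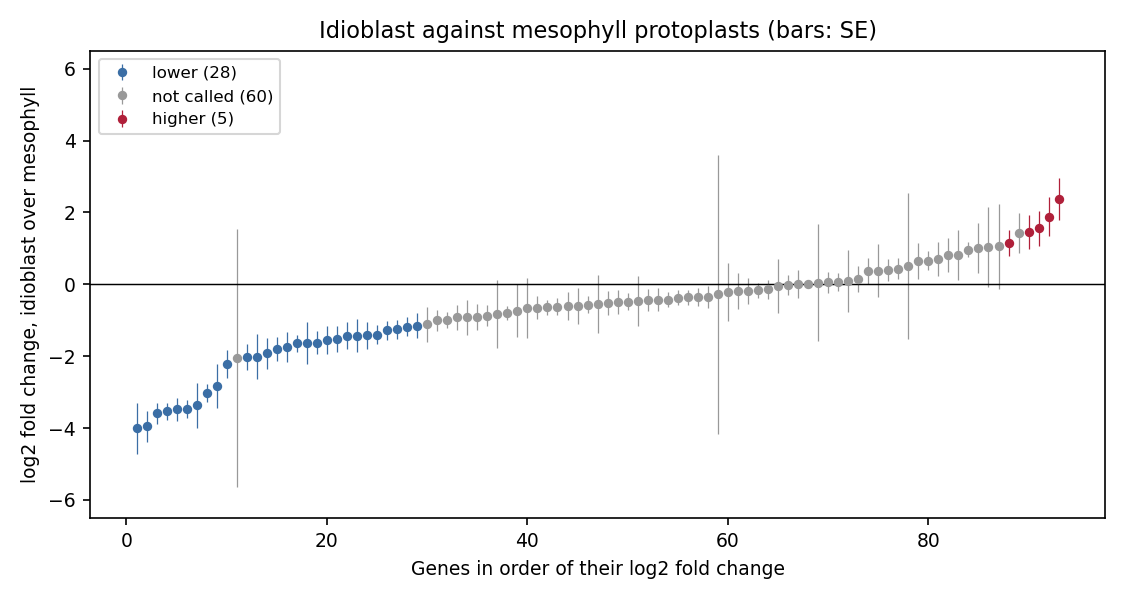
EdgeR log2 fold change of idioblast over mesophyll protoplasts (y axis) for 93 members in order of size (x axis), with bars of 1 SE. Blue points were called lower (28), red higher (5) and grey were not called (60), and the 5 tested members without a count in one of the groups are left out. Most points lie below 0.

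Mesophyll and total protoplasts were close. Of 98 members tested by edgeR 1 was higher in mesophyll and 0 were lower, beside 0.436% and 0.802% of all genes, with 3 higher and 2 lower at an unadjusted p under 0.05 and 1 and 2 by DESeq2. The higher one was CATHA_24104, a hypothetical protein, with 23 counts over the mesophyll samples and 1 over the total protoplast samples, a ratio of 26.8 with an exact 95% counting interval of 4.35 to 1103.

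Total protoplasts were compared with the FACS leaves in a fit of the 11 samples of that experiment. Of 91 members tested, 17 were higher in total protoplasts and 38 lower, beside 22.5% and 27.5% of 17533 genes. The leaf samples differed from each other, with 0.400% (95% Wilson interval 0.396 to 0.403) and 1.94% (1.93 to 1.95) of counts on the members and 961.5 and 3003 CPM of the epidermis list. Without leaf replicate 2, 33 members were higher and 12 lower, and in a fit of total protoplasts and leaves alone 22 were lower. The oxoglutarate/iron-dependent dioxygenase CATHA_13192 had the largest increase of a described member, from 0 and 1.36 CPM in leaves to 12.9, 10.6 and 11.4 CPM (4.53 ± 0.932, edgeR adjusted p = 0.0018), the only leaf counts being those of leaf replicate 2. CATHA_10059 had the largest decrease, with 4.63 and 21.7 CPM in leaves (-2.36 ± 0.762, edgeR adjusted p = 0.021) and -0.60 without leaf replicate 2 (adjusted p = 0.52). The chloroplast small heat shock protein CATHA_1247 had 2.28 and 0.585 CPM in these leaves and 21.4, 12.7 and 11.5 CPM in total protoplasts, higher by 3.84 ± 0.547 (edgeR adjusted p = 0.00018).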

How the data were processed

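RNA-seq of chamber-grown and outdoors C. roseus leaves and of leaf protoplasts was analysed. For the 23 Illumina samples the authors deposited raw counts per gene, made with Trimmomatic 0.39, HISAT2 on the C. roseus genome v2 and featureCounts 2.0.1. For the 12 Nanopore samples the authors deposited estimated counts, made with Pychopper, minimap2 and Salmon 1.4.0, which were rounded for tests. No strand option is given, so antisense, overlapping and near-identical genes are uncertain. CPM is not scaled to gene length and was compared between samples only.

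Genes were filtered (filterByExpr), scaled (TMM) and tested with edgeR 4.0.16 in R 4.3.3 (robust glmQLFit, glmQLFTest), SE being the log2 fold change over the root of F. DESeq2 1.42.0, RLE scaling, no filter, fewer samples, a replicate block and leaving out each replicate were alternatives. The test was checked on simulated data, where it recovered 89% of genes changed 4-fold in leaf pair 2 (5380 genes) and 100% in idioblast against mesophyll protoplasts (17827 genes). The simulation changed only genes above a minimum expected count and gave every gene the same spread. These percentages therefore do not hold for members with fewer counts or a wider spread between replicates. Depth ranges stand in the report, and intervals and floors cover counting error only.

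The members and gene lists were chosen with earlier results of these data known. The lists are keyword matches in the study's descriptions: heat shock and chaperone, dehydration and abscisic acid, defence, carbohydrate, redox and detoxification, phenylpropanoid and flavonoid, kinase and receptor, transcription factor and transporter, and the MIA pathway table. Named genes are the described members, the 2 undescribed ones of highest score, the last 2 members and the first 2 genes left out and, per tested comparison, the described members with the largest called increase and decrease. Others are said to be chosen after their values were seen, as were the other 4 higher in idioblasts, the 7 high in 1 sample, those without Nanopore counts, CATHA_38177, CATHA_24104, CATHA_22045 and CATHA_31146. No RefSeq entry matched a gene ID, so no sequence is given. No replicates differed by less than sampling noise. Equal replicate numbers met the criterion for pairs of idioblasts with the other protoplasts, but not between indoors and outdoors. Correlations of deviations at equal numbers were 0.123 to 0.274 for idioblast and mesophyll and 0.119 to 0.266 for idioblast and total. For mesophyll and total, equal numbers had 0.064 to 0.260 and unequal numbers -0.228 to 0.152, so these ranges overlapped. The study's methods state paired extraction of the protoplasts. Between leaf pairs 2 and 3, equal numbers had correlations of 0.172 to 0.426 outdoors and 0.064 to 0.190 indoors. Unequal numbers had -0.336 to 0.086 and -0.154 to 0.040. The protoplast calls reported are of the fit without the replicate block, and the closing section gives the counts with it.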

Additional observations from a re-analysis of the deposited data

How the results depend on the processing

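Of the 100 genes, 94 stayed with TMM-scaled CPM, 98 and 83 with a pseudocount of 0.5 and 5, 86 and 67 with a minimum of 5 and 20 CPM, and 83 to 96 with 1 leaf sample left out. TMM moved the median gene of a sample by -0.15 to 0.15 on the log2 scale, and 93 and 92 members then separated completely in leaf pairs 1 and 4. With 1 replicate left out, members higher outdoors numbered 36 to 47 in leaf pair 2 and 44 to 57 in leaf pair 3, members lower 0 to 0 in both, and members called in the difference between the leaf pairs 0 to 0 either way. Idioblast against mesophyll gave 3 to 6 higher and 21 to 32 lower, idioblast against total 4 to 9 and 20 to 29, mesophyll against total 0 to 1 and 0 to 1, and total protoplasts against leaves 16 to 33 and 12 to 52. Counts that moved by over 1.5 times under another setting were these: mesophyll against total had 0 higher in a fit of only the samples compared and 2 lower with DESeq2, and total protoplasts against leaves had 22 lower in a fit of only the samples compared. The cause was not tested. Leaving out the 7 members high in 1 outdoors sample changed 1 count, of members higher in total protoplasts than in leaves, to 16.

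With the replicate number as a block, 54 members rose in leaf pair 2 and 58 in leaf pair 3, where equal numbers of indoors and outdoors samples had correlations of 0.029 to 0.104 and -0.029 to 0.076 and so share only a number. Among protoplasts the block gave 6 higher and 30 lower for idioblast against mesophyll, and it moved no other count of calls by over 1.5 times. Of the log2 fold changes of named members called, 272 values under alternatives kept the call, 28 lost it and 0 reversed. The shallowest sample, leaf pair 2 indoors replicate 1 with 85976 counts, held no count for 51 members, which limits what leaf pair 2 can show for genes low indoors.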
